A study of Homo sapiens with 6 samples.

Results

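The genes described here are the Rab GTPases other than RAB27B, taken as every gene in the deposited tables whose symbol is RAB, a number and at most one letter from A to D. Of 62 such protein-coding genes in the RefSeq gene table, 36 were in the tables, out of 7681 genes listed in all. The study compared 3 cultures of wild-type HCT116, a human colorectal carcinoma cell line, with 3 HCT116 cultures labelled as a CRISPR/Cas9 deletion of RAB27B, all untreated and grown for 48 hours in DMEM with serum before RNA sequencing. Its title names regulation of autophagy by RAB27B as the question. The sources used here do not say whether the line labelled Rab27B KO is 1 clone or a pool, or which part of the gene was targeted. The data were 2 tables of the authors' own comparison, 1 of higher and 1 of lower genes, which hold a q-value and a fold change on the log2 scale for each gene and no value per sample. Replicate spread and depth are therefore unknown, and no standard error or interval can be given. Every difference named below passed the authors' q-value threshold of 0.05.

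Rab proteins are small GTPases that act as switches on membranes. In the GTP-bound form, set by exchange factors (GEFs), a Rab sits on a particular organelle and recruits effectors such as motors and tethers. GTPase-activating proteins (GAPs) turn it off, and it is then taken off the membrane for reuse. Different Rabs mark different organelles, so the family is commonly read as a map of traffic: RAB1 and RAB2 between ER and Golgi, RAB5 on early endosomes, RAB11 on recycling endosomes, RAB7 on late endosomes and lysosomes, and RAB3 and RAB27 on secretory vesicles. In gut epithelium RAB11, RAB25 and RAB17 serve traffic to the apical surface.

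The RNA of the targeted gene went against its label. By the authors' deposited table, RAB27B RNA was 36.7-fold higher, not lower, in the cultures labelled Rab27B KO, and its q-value is listed as 0. An RNA level does not show whether protein is made, and the tables do not show whether the labels or the direction of the ratio are swapped. If either were, every higher and lower below would turn, ranks of rises and falls and shares of higher genes included. Directions below are given as cultures labelled Rab27B KO against wild type. RAB27A, its closest paralog, was in neither table. Of 7 markers of colon epithelium 6 were listed, with EPCAM (log2 fold change -1.15), CDH1 (-1.15) and CDX2 (-0.75) lower and KRT8 (0.61), KRT19 (0.52) and KRT18 (0.47) higher per the authors' deposited table. Of 6 leukocyte, fibroblast and endothelial markers, COL1A1 was listed (log2 fold change -0.40 per the authors' deposited table). The tables give no levels, so presence or absence of a marker could not be checked, and in bulk RNA a change in the mix of cells and a change of RNA per cell cannot be told apart.

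Most listed Rab genes were higher, mainly by small amounts, while changes of at least 1.5-fold were nearly even, 4 higher and 5 lower. Of the 36 members 27 were higher and 9 lower by the authors' deposited table, so 75.0% of them were higher and the rest lower, against 50.7% higher and 49.3% lower among all listed genes. A q-value below 0.01 was listed for 34 of them (94.4%), against 84.9% of all listed genes. Of all RefSeq protein-coding genes 37.9% were listed, 19.2% as higher and 18.7% as lower, while 58.1% of the Rab family was listed, 43.5% as higher and 14.5% as lower. How many genes the authors tested is unknown, so these shares are of annotated genes. Listing also depends on abundance, which is not known here. The median log2 change of the 36 was 0.27, against 0.12 for all listed genes, and the mean was 0.06. The 27 higher members had a median of 0.36, against 0.41 for all higher genes, and 18 of them lay below that value. By contrast the 9 lower members had a median of -0.77, against -0.41 for all lower genes, and 6 of them lay beyond it. A change of at least 1.5-fold was seen in 4 of the 27 higher members (14.8%) and in 5 of the 9 lower ones (55.6%), against 30.4% of all higher and 31.2% of all lower genes. The members nearest to that mark were RAB12 just above it (1.501-fold) and RAB40C just under it (1.46-fold), both higher per the authors' deposited table.

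**Figure D1:**
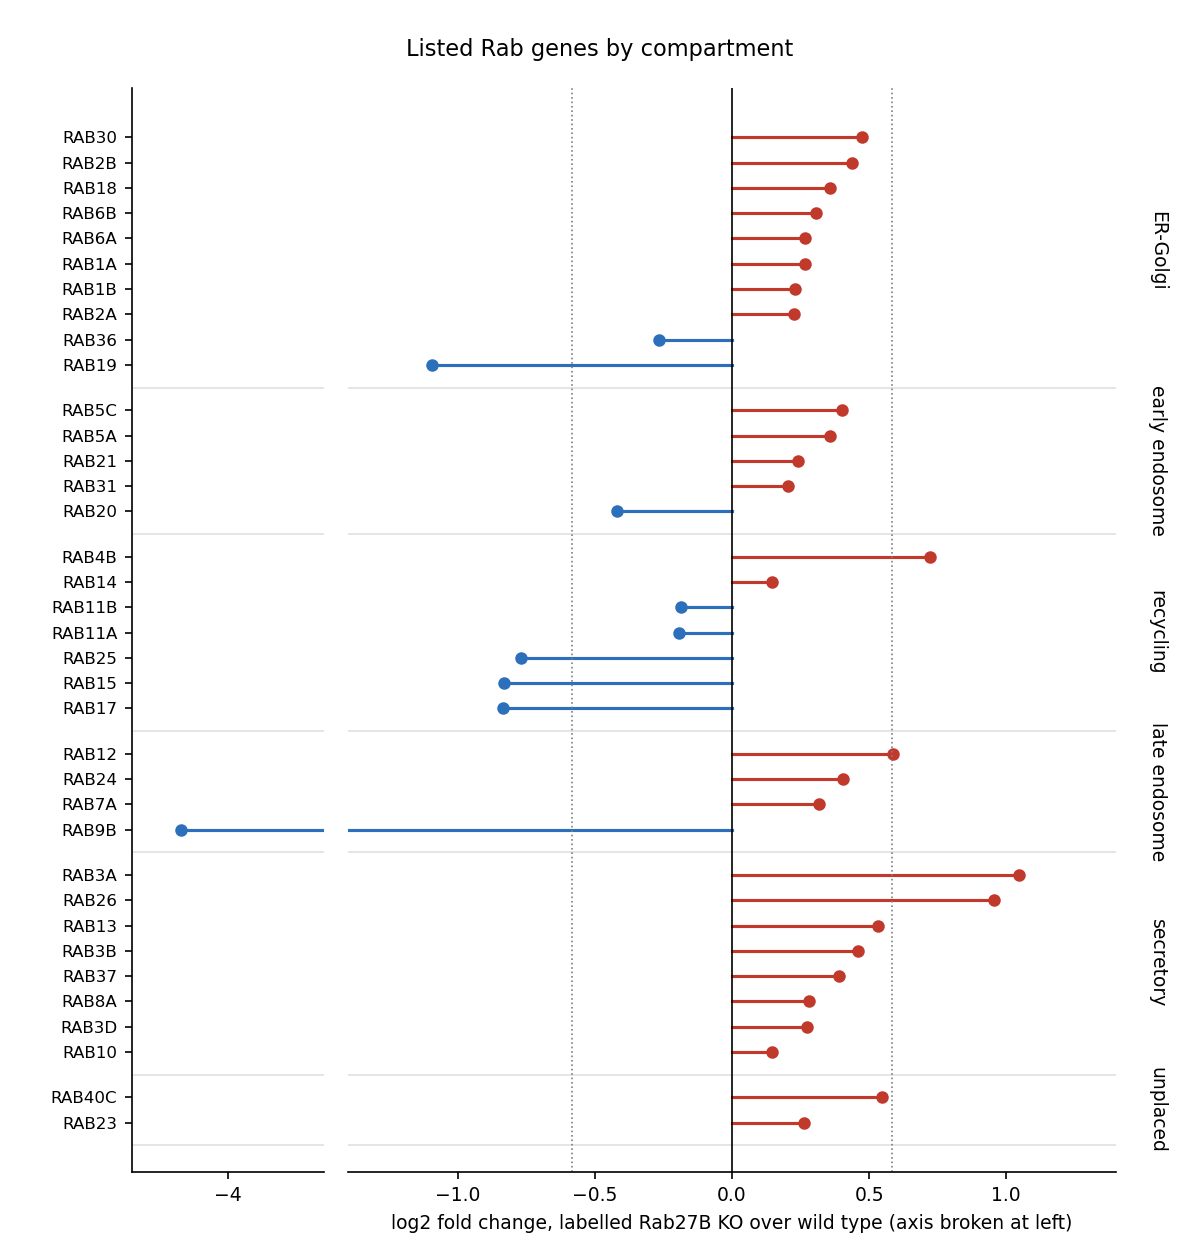
Log2 fold change (samples labelled Rab27B KO over wild type) of each of the 36 listed Rab genes, grouped by compartment, red for higher and blue for lower. Dotted lines mark 1.5-fold, and the axis is broken at the left for RAB9B. All 8 listed secretory Rabs lie to the right of 0, and 5 of 7 recycling Rabs lie to the left.

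Of 12 secretory Rabs 8 were listed, all of them higher, with a median log2 change of 0.43 per the authors' deposited table. Among all listed Rabs 75.0% were higher, and among all listed genes 50.7%. RAB3A, a Rab of regulated exocytosis best known from synaptic vesicles (gene ID 5864, chr19:18196784-18204042), was 2.07-fold higher (log2 1.05, q = 9.27e-25) per the authors' deposited table, the largest rise among the 36 members. RAB26, a Rab of secretory granules (gene ID 25837, chr16:2148144-2154165), was 1.94-fold higher (q = 4.23e-22) per the authors' deposited table. Both changed more than most listed genes, at the 88.4th and 86.4th percentile of absolute log2 fold change among all 7681. RAB13, which serves junctions and cell-surface delivery in epithelia (gene ID 5872, chr1:153981650-153990708), was 1.45-fold higher with the smallest q-value of the group (4.67e-26) per the authors' deposited table. The other RAB3 genes that were listed also rose. RAB3B stood at a log2 change of 0.46 and RAB3D, a Rab of exocrine granules, at 0.27 per the authors' deposited table, whereas RAB3C was not listed. RAB37, a further secretory granule Rab, stood at 0.39 per the authors' deposited table. RAB8A and RAB10, which carry vesicles from the Golgi and recycling endosomes to the plasma membrane and primary cilium, were at 0.28 and 0.15 per the authors' deposited table. RAB8B, RAB44 and RAB27A were in neither table. Without RAB8A, RAB10, RAB13 and RAB26, which also act on other routes, 4 listed members remained in this group, all higher.

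Recycling Rabs went the other way. Of 9 genes 7 were listed, 2 higher and 5 lower, with a median log2 change of -0.19 per the authors' deposited table. The share of higher genes was 28.6%, against 75.0% of all listed Rabs and 50.7% of all listed genes. RAB25, the epithelial member of the RAB11 group (gene ID 57111, chr1:156061160-156070504), was 1.70-fold lower with a q-value of 9.56e-44 per the authors' deposited table, the smallest q-value of all 36 members. RAB17, an epithelial Rab of apical recycling and transcytosis (gene ID 64284, chr2:237574326-237590734), was 1.78-fold lower (q = 1.78e-16) per the authors' deposited table. RAB15, a Rab of early and recycling endosomes (gene ID 376267, chr14:64945816-64972336), was likewise 1.78-fold lower (q = 7.77e-17) per the authors' deposited table. These 3 genes lay between the 79.9th and 82.7th percentile of absolute log2 fold change among listed genes. RAB11A and RAB11B, the broadly expressed Rabs of the recycling endosome, fell far less: by 0.19 (q = 3.67e-05) and by 0.19 (q = 5.59e-05) on the log2 scale per the authors' deposited table. All 3 genes of the RAB11 group were thus lower, 2 of them slightly. The higher members were RAB4B, of the fast recycling route (gene ID 53916, chr19:40778247-40796942), at 1.65-fold (q = 1.10e-12), and RAB14, which works between Golgi and endosomes, at 1.11-fold (q = 0.0103) per the authors' deposited table. RAB4B lies inside the annotated read-through genes MIA-RAB4B and RAB4B-EGLN2 on the same strand, so its reads could be shared with them. RAB4A and RAB35 were not listed. Several of these Rabs also work elsewhere: with RAB4B, RAB14 and RAB15 counted as early endosome Rabs and RAB8A, RAB10, RAB12 and RAB13 as recycling Rabs, the recycling group had 4 higher and 4 lower members. The epithelial genes EPCAM and CDH1 fell beside RAB25 and RAB17, while the keratins KRT8, KRT18 and KRT19 rose; whether the fall of these Rabs goes with that of other epithelial genes was not tested.

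The promoter windows of the 3 RAB11 group genes are shown because these paralogs moved in the same direction. Each window runs from 250 bases before to 50 bases after the RefSeq start site on GRCh38.p14, 5′ to 3′ on the gene's strand, all + strand. Capitals mark matches, on either strand, to the GC box GGGCGG and to the cAMP response element TGACGTCA, and neighbouring matches can overlap.
RAB11A, chr15:65869241-65869540: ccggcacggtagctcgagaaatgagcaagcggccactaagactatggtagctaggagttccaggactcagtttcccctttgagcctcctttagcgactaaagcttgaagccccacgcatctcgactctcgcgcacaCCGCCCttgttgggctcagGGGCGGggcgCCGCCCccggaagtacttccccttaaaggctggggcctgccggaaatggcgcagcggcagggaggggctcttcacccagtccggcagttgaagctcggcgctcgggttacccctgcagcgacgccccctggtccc
RAB11B, chr19:8390110-8390409: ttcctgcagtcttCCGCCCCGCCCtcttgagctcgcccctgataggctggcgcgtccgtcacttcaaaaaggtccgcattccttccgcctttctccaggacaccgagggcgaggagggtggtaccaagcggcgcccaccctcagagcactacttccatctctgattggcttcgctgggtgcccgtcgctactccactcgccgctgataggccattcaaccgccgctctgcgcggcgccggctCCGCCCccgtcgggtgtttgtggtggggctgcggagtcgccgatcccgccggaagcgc
RAB25, chr1:156060910-156061209: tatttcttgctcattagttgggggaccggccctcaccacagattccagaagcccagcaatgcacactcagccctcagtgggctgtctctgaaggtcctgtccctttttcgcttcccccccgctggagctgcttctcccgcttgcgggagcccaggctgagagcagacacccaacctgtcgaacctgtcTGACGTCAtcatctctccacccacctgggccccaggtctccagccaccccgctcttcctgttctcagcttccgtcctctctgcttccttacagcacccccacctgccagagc
The RAB11A and RAB11B windows each held 3 GC boxes, with 23 and 32 CpG dinucleotides. The RAB25 window held no GC box, 9 CpG dinucleotides and 1 full cAMP response element, which starts 62 bases before the start site. Among the 28 listed Rab genes with a window, RAB25 was the only one with that element (3.57%). It was in 2.59% of 15843 protein-coding promoters and in 3.22% of those of listed genes, so the Rab share was near the share of listed genes. GC boxes were in 24 of the 28 windows (85.7%), against 58.5% of all protein-coding promoters and 72.4% of those of listed genes. RAB17, another epithelial faller, had the lowest GC content of the 28 windows at 54.7%, and RAB25 had 60.7%. The median was 62.4% for the 6 lower and 68.3% for the 22 higher Rab genes, and 66.3% for all listed genes with a window.

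Early endosome Rabs were mostly higher. Of 7 genes 5 were listed, 4 higher and 1 lower, with a median log2 change of 0.24 per the authors' deposited table. The share of higher genes, 80.0%, was near the 75.0% of all listed Rabs, against 50.7% of all listed genes. RAB5C and RAB5A, which drive fusion of early endosomes, were 1.32-fold (gene ID 5878, chr17:42124979-42154989, q = 2.45e-27) and 1.28-fold (gene ID 5868, chr3:19947097-19985175, q = 2.40e-07) higher per the authors' deposited table, and their paralog RAB5B was not listed. RAB21, a Rab of integrin endocytosis (gene ID 23011, chr12:71754863-71800286), was 1.18-fold higher (q = 5.86e-04) per the authors' deposited table. RAB31, which links the trans-Golgi network to endosomes, stood at a log2 change of 0.20 per the authors' deposited table. The lower member, RAB20, an endosome and phagosome Rab, stood at -0.42 (q = 0.0017) per the authors' deposited table. RAB22A was in neither table.

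The windows of 4 endosomal Rab genes held an E-box (CACGTG), and the sites are shown because this motif is the core of the CLEAR element, through which the factor TFEB acts on lysosome and autophagy genes. Each line gives the site, in capitals, with 20 bases on either side, 5′ to 3′ on the gene's strand (RefSeq, GRCh38.p14).
RAB5A, chr3:19946956-19947001, + strand: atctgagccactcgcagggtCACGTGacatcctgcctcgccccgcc
RAB21, chr12:71754823-71754868, + strand: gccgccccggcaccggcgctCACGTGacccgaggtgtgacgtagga
RAB31, chr18:9708221-9708266, + strand: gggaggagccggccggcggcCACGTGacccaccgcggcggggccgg
RAB24, chr5:177303724-177303769, - strand: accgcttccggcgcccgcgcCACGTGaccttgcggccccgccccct
The sites start 121, 20, 60 and 30 bases before the start sites of RAB5A, RAB21, RAB31 and RAB24. All 4 of these genes were higher, as were the genes of 22 of the 28 windows. E-boxes were in 4 of the 28 Rab windows (14.3%), against 8.88% of all protein-coding promoters and 10.3% of those of listed genes. By direction they were in 4 of the 22 higher windows (18.2%) and none of the 6 lower ones. At the share of listed genes, 6 windows are too few to read that absence. A link between the E-box and the rise was not tested. The full CLEAR element, the E-box with GT before and AC after it, was searched after the E-boxes were seen. Among the 28 windows it was in that of RAB5A alone. It was in 0.568% of all protein-coding promoters and in 0.840% of those of listed genes. No listed Rab window held the ER stress response element (CCAAT, 9 bases of any kind, CCACG), which 0.120% of the promoters hold. These matches describe the letters of the windows and do not show that a factor binds there.

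Of 12 late endosome and autophagy Rabs 4 were listed, 3 higher and 1 lower. The share of higher genes, 75.0%, was that of all listed Rabs, against 50.7% of all listed genes. With RAB20, RAB26 and RAB36 placed here and RAB12 among recycling Rabs, the group had 3 higher and 3 lower members. RAB7A, which governs maturation of late endosomes and autophagosomes and their fusion with lysosomes (gene ID 7879, chr3:128726183-128814798), was 1.24-fold higher (q = 1.83e-16) per the authors' deposited table. RAB12, which directs the transferrin receptor to lysosomes (gene ID 201475, chr18:8609437-8639383), was 1.501-fold higher (q = 2.64e-15) per the authors' deposited table. RAB24, an autophagy-associated Rab (gene ID 53917, chr5:177301198-177303719), was 1.32-fold higher (q = 0.00829) per the authors' deposited table. The lower member was RAB9B (gene ID 51209, chrX:103776324-103832257), a paralog of the late endosome to trans-Golgi Rab RAB9A, at a log2 change of -4.20 (18.3-fold lower) with a q-value of 0.00878 per the authors' deposited table. It was the largest change among the 36 members in either direction, at the 98.9th percentile of absolute log2 fold change among listed genes, yet its q-value was among the weaker ones: -log10 q was 2.06 for RAB9B, against a median of 5.45 over the 36 members. The counts behind it are unknown. RAB9A was not listed, and neither were RAB7B, RAB29, RAB32, RAB38, RAB39A, RAB39B and RAB42.

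Of 17 ER and Golgi Rabs 10 were listed, 8 higher and 2 lower, and the largest change among them was a fall, in RAB19. The group had a median log2 change of 0.27 per the authors' deposited table. Its share of higher genes, 80.0%, was near the 75.0% of all listed Rabs, against 50.7% of all listed genes. RAB1B and RAB1A, which control transport from ER to Golgi and take part in autophagosome formation, were 1.17-fold (gene ID 81876, chr11:66268639-66277492, q = 5.36e-11) and 1.20-fold (gene ID 5861, chr2:65086854-65130106, q = 4.54e-07) higher per the authors' deposited table. RAB18, a Rab of ER and lipid droplets (gene ID 22931, chr10:27504304-27542239), was 1.28-fold higher (q = 7.42e-08) per the authors' deposited table. RAB2A and RAB2B, of the Golgi, stood at log2 fold changes of 0.23 and 0.44, and RAB6A and RAB6B, of Golgi retrograde transport, at 0.27 and 0.31 per the authors' deposited table. RAB30, also a Golgi Rab, stood at 0.47 per the authors' deposited table. Thus the 8 higher members spanned 0.23 to 0.47 and none reached 1.5-fold. RAB19 (gene ID 401409, chr7:140404058-140427974) was 2.14-fold lower (q = 0.00994) and RAB36, a relative of RAB34, 1.20-fold lower (q = 0.0101) per the authors' deposited table. The q-values of RAB19 and RAB36 were among the weaker ones, with -log10 q of 2.00 for each, against a median of 5.45 over the 36 members. Weak values were not limited to falls. Among higher Rabs -log10 q was 2.02 for RAB30, 1.99 for RAB14, 2.08 for RAB24 and 2.10 for RAB10. The counts behind all these changes are unknown. RAB6C and RAB6D, near-copies of RAB6A, were not listed, and reads of RAB6A could be shared with them. RAB33A, RAB33B, RAB34, RAB41 and RAB43 were also in neither table.

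Both listed Rabs without a compartment here were higher. RAB40C, which carries a SOCS box of ubiquitin ligases (gene ID 57799, chr16:589357-629268), was 1.46-fold higher (q = 6.72e-10) and RAB23, a Rab of Hedgehog signalling and the cilium (gene ID 51715, chr6:57186992-57222307), 1.20-fold higher (q = 0.0073) per the authors' deposited table. RAB28, RAB40A and RAB40B were not listed.

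**Figure D2:**
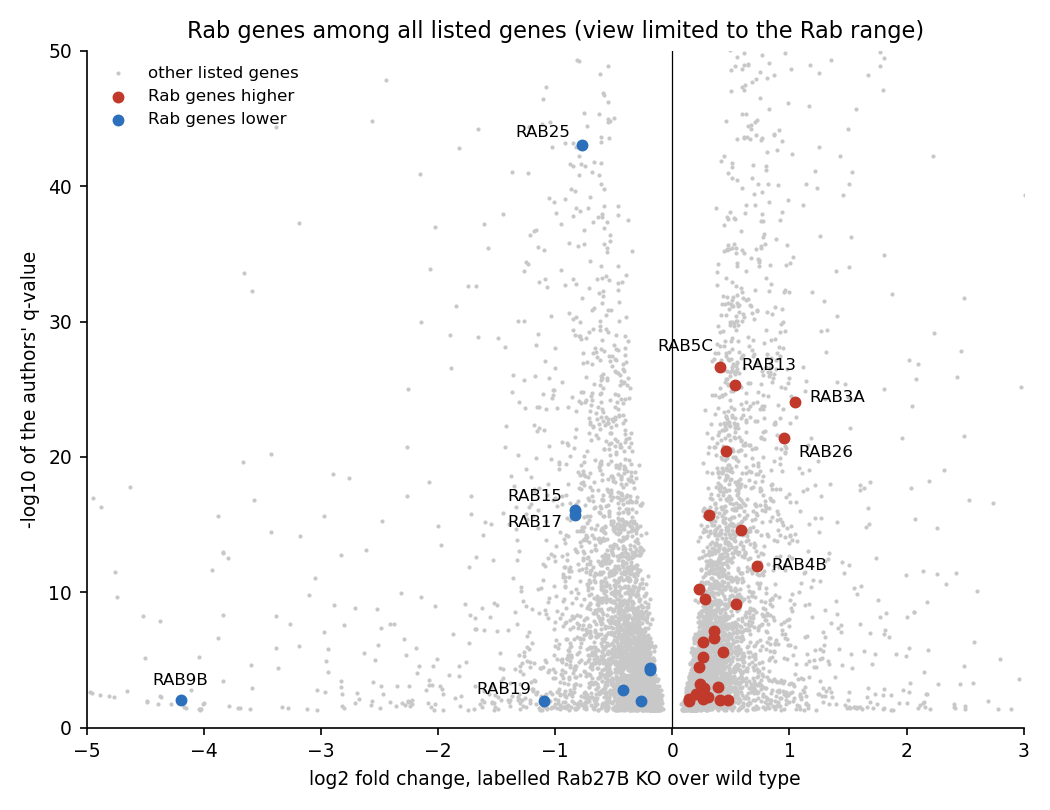
Log2 fold change (horizontal) against -log10 of the authors' q-value (vertical) for the listed genes in the range of the Rab genes, grey for other genes, red and blue for higher and lower Rab genes. RAB25 stands at the top at 43.0, RAB3A and RAB26 lie farthest right, and RAB9B lies far left near the bottom at 2.06.

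Listed Rab genes that share a number had the same direction wherever more than 1 was listed. The family holds 13 groups of paralogs (genes that share a number, with RAB25 placed with RAB11), and 6 of these had at least 2 listed members. In 5 of the 6 all listed members were higher (RAB1, RAB2, RAB3, RAB5 and RAB6), in 1 all were lower (RAB11), and none was split. Apart from RAB25, relatives with different numbers were not grouped, so this does not cover them. The grouping was made with earlier results of these data known. In the family 75.0% of the listed members were higher, and whether paralogs share a direction beyond that lean was not tested. In 5 further groups 1 member was listed: RAB4B, RAB7A, RAB8A and RAB40C as higher and RAB9B as lower. A gene in neither table did not pass the threshold or was not measured, so this does not show that the listed and unlisted paralogs differ.

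The listed Rabs lie on 20 chromosomes. On chromosomes 4, 7, 13 and 15, and also on 21 and by a small margin on 11, most listed genes of the whole study were lower. The 3 listed Rabs on the first 4 of these, RAB19, RAB20 and RAB11A, were all lower. Of the listed genes on their chromosomes 33.0%, 13.5% and 19.8% were higher. On chromosome 11, where 47.5% were higher, the 3 listed Rabs (RAB1B, RAB30 and RAB6A) were all higher. Chromosome 21 holds no listed Rab. Within 2 Mb of RAB11A 4 listed genes were higher and 22 lower, and within 2 Mb of RAB20 all 4 were lower. For the larger recycling falls the chromosomes leaned the other way: 58.2% of listed genes were higher on chromosome 1 (RAB25), 53.4% on chromosome 2 (RAB17) and 54.2% on chromosome 14 (RAB15). Near RAB25, 31 listed genes within 2 Mb were higher and 16 lower, near RAB17 3 were higher and 9 lower, and near RAB15 4 were higher and 7 lower. Around RAB12 all 9 listed genes within 2 Mb were higher, and around RAB31 9 were higher and 2 lower. On their chromosome, 18, 50.5% of the listed genes were higher. RAB12 and RAB31 lie within 2 Mb of each other, so each is counted as a neighbour of the other. Their windows overlap and are not separate observations, though both enter the counts that follow. Across the family, 21 of the 27 higher Rabs had more higher than lower listed neighbours, and 6 of the 9 lower Rabs more lower than higher ones (77.8% and 66.7%). Over all listed genes with a position, 66.8% of the higher and 47.2% of the lower ones had such neighbours. The part of position in these changes was not tested.

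Median transcript length and GC content ran opposite in the Rabs and in all listed genes. Among all listed genes the lower ones had longer transcripts (median 4287 bases, against 2809 for the higher ones) with less GC (47.9% against 52.8%). Among the Rabs the medians were reversed: 1966 bases and 56.7% GC for the 9 lower members, and 2928 bases and 45.5% GC for the 27 higher ones. RAB19 (952 bases) and RAB25 (1110 bases) had the shortest transcripts of the 36. RAB11A (4930 bases, 37.2% GC) and RAB9B (3748 bases, 39.5% GC) were both long and poor in GC. RAB36 (3828 bases) and RAB15 (3515 bases) were long too, but rich in GC, at 56.7% and 57.2%. Lengths are of the longest coding transcript and no test was made.

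**Figure D3:**
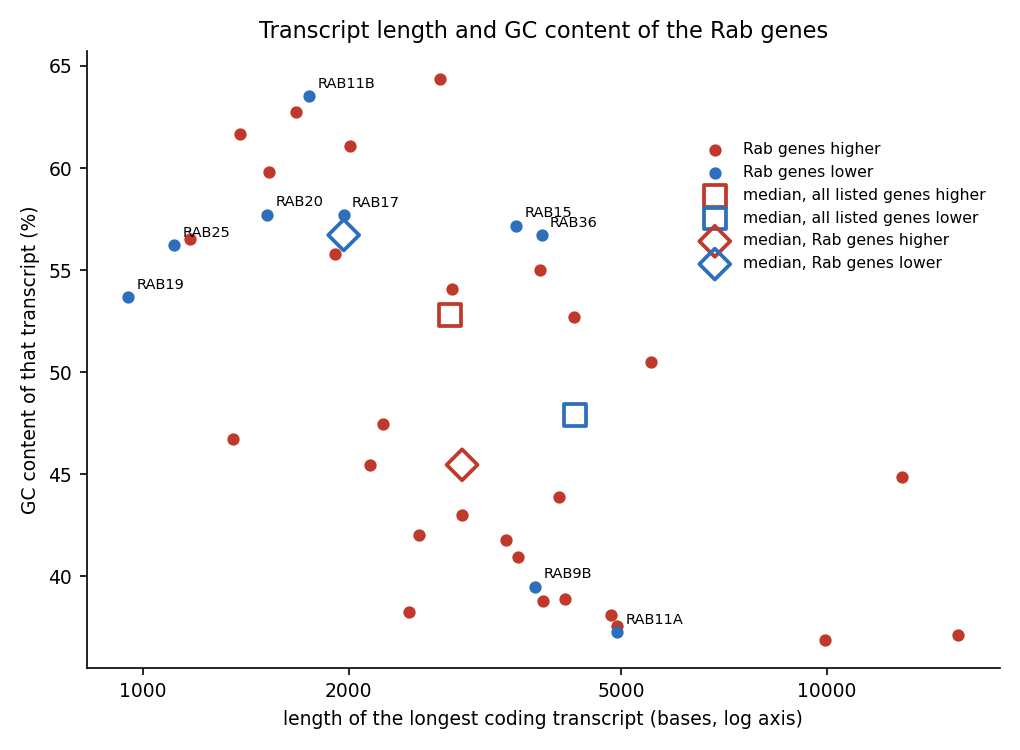
Length of the longest coding transcript (log axis) against its GC content for the 36 listed Rab genes, red for higher and blue for lower, with open diamonds at the Rab medians and open squares at the medians of all listed genes. Most lower Rabs lie in the upper part, rich in GC, while RAB9B and RAB11A lie at the bottom.

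Genes that act on Rabs did not share one direction. For comparison, 37.9% of RefSeq protein-coding genes were listed, and 50.7% of all listed genes were higher and 49.3% lower. For membrane attachment and extraction 6 of 7 genes were listed, 4 higher and 2 lower (66.7% higher). RABAC1, a prenylated Rab acceptor, was 1.58-fold higher (q = 1.09e-19) per the authors' deposited table. CHML, an escort protein for the prenylation of Rabs, was 1.43-fold lower (q = 2.90e-06) per the authors' deposited table. Both subunits of the Rab prenyltransferase, RABGGTA (log2 fold change 0.31) and RABGGTB (0.36), were higher and GDI2 (-0.13) was lower per the authors' deposited table, with RABGGTA and GDI2 named after their values were seen. Of 52 exchange factor genes 25 were listed, 9 higher and 16 lower (36.0% higher), with a median log2 change of -0.20 per the authors' deposited table. TRAPPC1, a subunit of the TRAPP complex that activates RAB1, was 1.31-fold higher (q = 7.76e-19), RAB3IL1, an exchange factor for RAB8 that binds RAB3A, 1.70-fold higher (q = 6.33e-16) and SBF1 1.36-fold lower (q = 1.22e-15) per the authors' deposited table. Of 34 GAP genes 18 were listed, 12 higher and 6 lower (66.7% higher). TBC1D8 was 2.50-fold higher (q = 3.89e-146), EVI5L 1.71-fold higher (q = 2.65e-25) and TBC1D14, an autophagy regulator that binds RAB11, 1.59-fold lower (q = 1.69e-42) per the authors' deposited table.

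Effectors were split nearly evenly, 11 higher and 13 lower among 24 listed of 39. Their share of higher genes, 45.8%, was near the 50.7% of all listed genes. EHBP1, an effector of RAB8 and RAB10, was 2.03-fold higher (q = 3.08e-75) and PLIN3, a RAB9 effector, 1.498-fold higher (q = 1.91e-37) per the authors' deposited table. RAB11FIP4, which binds RAB11, was 2.24-fold lower (q = 1.84e-37) per the authors' deposited table. The other RAB11 effectors did not follow it as a group: RAB11FIP3 (-0.30) was lower, while RAB11FIP1 (0.25), RAB11FIP5 (0.57) and the motor MYO5A (0.41) were higher on the log2 scale per the authors' deposited table. The secretory RAB3 effector RIMS2 stood at -2.80 per the authors' deposited table beside the rise of RAB3A. SYTL4, another secretory Rab effector, went the other way, at 0.37 (q = 0.0112) per the authors' deposited table. The counts behind the RIMS2 value are unknown. These further effectors were named after their values were seen.

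**Figure D4:**
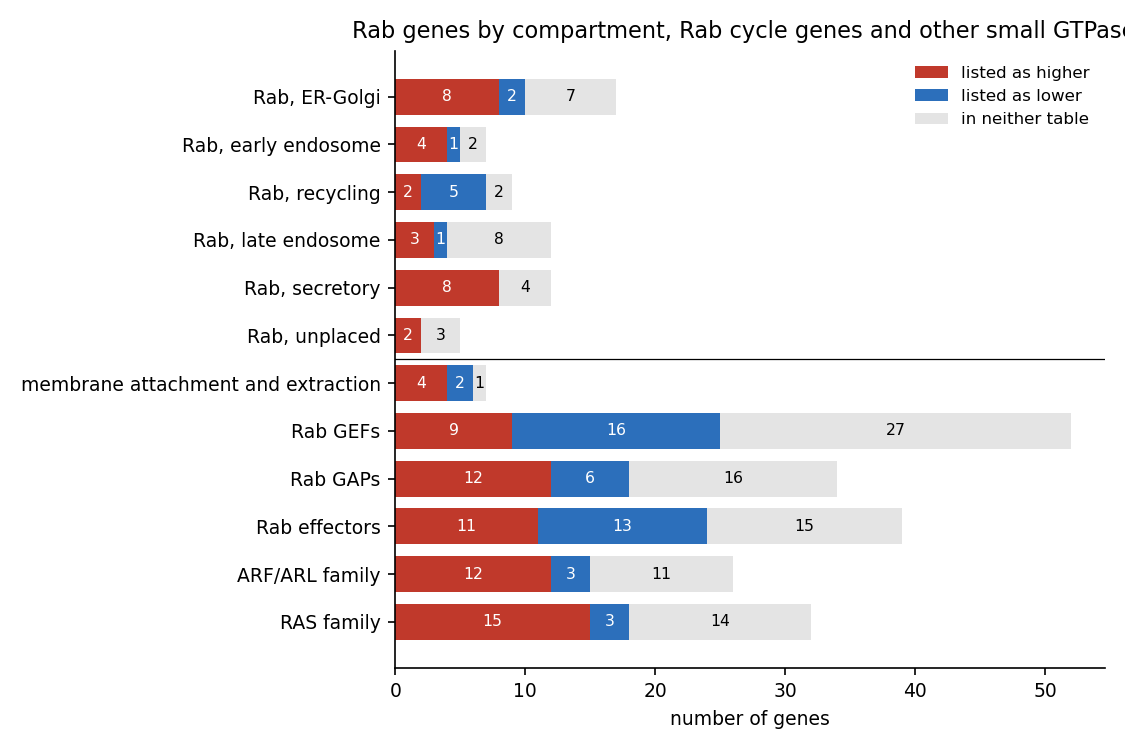
Number of genes listed as higher (red), listed as lower (blue) and in neither table (grey) for the Rab genes of each compartment, above the line, and for genes of the Rab cycle and other small GTPase families, below it. Recycling Rabs and exchange factors have more lower than higher genes, 5 against 2 and 16 against 9.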

How the data were processed

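RNA was sequenced from 3 wild-type HCT116 cultures and 3 labelled Rab27B KO, grouped by their titles; the submitters call the 3 of each genotype biological replicates. Libraries were made on the DNBSEQ platform, per the labels' protocols. The submitters' processing notes name HISAT, Bowtie2 and GRCh38. How reads were counted, scaled and tested is not given in the sources. The deposited tables give, per the file headers, the log2 ratio of Rab27B KO to wild type and a q-value for each gene. For higher genes the linear ratio is deposited too, and it matched the log2 column within 4.53e-10 of its value. The tables hold only genes with q below 0.05.

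From these, Rab genes were selected by symbol, placed in compartments from general knowledge, counted and summarised by medians, with no test added. Folds are 2 to the power of the absolute log2 value. Gene IDs were matched to RefSeq on GRCh38.p14 (7656 of 7681 matched, 25 did not), which gave all coordinates. For all 36 Rab genes ID and symbol matched. Transcript length and GC content came from GENCODE release 29, for 7610 listed genes. RefSeq promoter windows were found for 28 of the 36 and searched on both strands; RAB12, RAB15, RAB1A, RAB20, RAB26, RAB2A, RAB36 and RAB37 had no entry. On GENCODE, 23 of the 36 overlap a coding or long noncoding gene on the opposite strand, and whether counting used strand is unknown. On the same strand 7 do: RAB3D, RAB4B, RAB5C, RAB8A, RAB13, RAB24 and RAB40C. Reads of these could be shared with the overlapping gene.

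The members, compartments and lists were chosen with earlier results of these data known. Every listed Rab is named, and a few genes and 1 list of the wider set are not reported here. Fuller values are given for up to 3 members of each compartment with the smallest q-value and for those changed at least 1.5-fold, and for 3 members of each other list. Alternatives were a q-value below 0.01, a change of 1.5-fold or a log2 change of 1, matching by gene ID, leaving out chromosomes 4, 7, 13 and 15, and a second compartment for Rabs that act in more than 1. Python 3.11.15, pandas 2.3.3, NumPy 2.4.6 and matplotlib 3.10.9 were used.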

Additional observations from a re-analysis of the deposited data

How the results depend on the processing

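The excess of higher Rab genes lay in small changes. At 1.5-fold or more 4 were higher and 5 lower, with a median log2 fold change of -0.77. Among all listed genes 1184 were higher and 1181 lower at that cut-off. At a log2 change of 1 or more 1 (RAB3A) was higher and 2 (RAB19 and RAB9B) lower, against 469 and 499 of all listed genes. The Rab median was then -1.09, the value of RAB19. The direction of the Rab median thus turned at these cut-offs, where it rests on few genes. At a q-value below 0.01, 26 were higher and 8 lower; RAB14 and RAB36 dropped out, which left 1 higher recycling Rab and 1 lower ER-Golgi Rab. Matching by gene ID changed no count, and without chromosomes 4, 7, 13 and 15 the counts were 27 and 6. These chromosomes, where most listed genes were lower, hold 3 lower and 0 higher listed Rabs. Leaving them out could therefore only raise the share of higher Rabs. With Rabs moved to their second compartment, ER-Golgi had 1 lower member, recycling 4 higher and 4 lower, late endosome 3 lower and secretory 4 higher and 0 lower, so the lean of recycling Rabs to lower depends on the placing. No paired analysis was possible because the tables hold no values per sample, and no replicate could be left out for the same reason.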

Other observations

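Other families of small GTPases also had more higher than lower genes. Of 26 ARF and ARL genes, which act in vesicle coating and organelle transport, 15 were listed, 12 higher and 3 lower, with a median log2 change of 0.38 per the authors' deposited table. ARF1 and ARF4, of the Golgi, were 1.29-fold and 1.43-fold higher, and ARL2, a regulator of tubulin folding, was 1.39-fold higher per the authors' deposited table. Of 32 RAS family genes 18 were listed, 15 higher and 3 lower, with RRAS 2.31-fold, RERG 4.70-fold and RAP2B 1.36-fold higher per the authors' deposited table. The share of listed genes that were higher was 80.0% and 83.3% for these families, beside 75.0% for the Rabs and 50.7% for all listed genes. The differences between families were not tested.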
